A study of Mus musculus with 5 samples.

Results

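The 10 CC chemokine genes Ccl2, Ccl3, Ccl4, Ccl5, Ccl7, Ccl8, Ccl11, Ccl20, Ccl25 and Ccl28 were examined in whole mouse colon. They were taken by name, with every probe of each gene on the array, which gave 14 of 56605 probes, and all 10 genes were among the 32917 features tested. RNA was measured on 5 single-colour Agilent arrays of wild-type mice, whose strain the labels write as C57BL/B6. In the NT-3N group (n = 3) the colon was taken 3 hr after NT-3N, a modified human IL-11 that activates the IL-11 receptor, had been injected intravenously. The Control group (n = 2) is labelled as control without mention of a vehicle injection, and the legend of the study calls these samples untreated. Agonist and injection therefore cannot be told apart. The mice were 8 weeks old by the legend of the study, sex is not stated in the sources used here, and the dose is left out because the labels and the methods of the study state it in different units.

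CC chemokines are small secreted proteins that draw leukocytes bearing matching receptors into tissue. Ccl2, Ccl7, Ccl8 and Ccl12 are monocyte chemoattractants, Ccl11 (eotaxin) acts on eosinophils through Ccr3, Ccl3, Ccl4 and Ccl5 draw monocytes and T cells, and Ccl20, Ccl25 and Ccl28 are made mainly by epithelium and act through Ccr6, Ccr9 and Ccr10. Fibroblasts of the gut wall are a known source of the monocyte chemoattractants and of eotaxin, and the epithelium over lymphoid follicles is a known source of Ccl20.

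On the array log2 scale, after quantile normalization, 8 of the 10 genes lay higher and 2 lower in NT-3N than in Control, with a median difference of 0.68, against a median of −0.02 over all features. Ccl11 rose 2.15-fold and was the single member with an adjusted p under 0.05. Ccl2, Ccl7 and Ccl8 were higher on all 3 NT-3N arrays than on both Control arrays but did not pass the adjusted test. The other 6 members had overlapping groups. Among all features, 0.125% were called higher and 0.0182% lower at an adjusted p under 0.05 (limma, Benjamini-Hochberg), while 1 of 10 members was called higher and 0 lower. At an unadjusted p under 0.05 the 4 genes Ccl2, Ccl7, Ccl8 and Ccl11 were higher and 0 members lower, where 4.95% and 4.67% of all features were. With a change of at least 2-fold as well, 2 members (Ccl7 and Ccl11) were higher and 0 lower, against 0.793% and 0.51% of all features. The groups did not overlap, with NT-3N above, in 4 of 10 members and in 13.5% of all features, and with NT-3N below in 0 members and in 14.8% of all features.

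Some facts of the arrays bear on these values. Between 70.6% and 73.0% of probes were well above background, no spot was saturated, and 1 slide, scanned at 1 time, carried every array. Socs3, a target of gp130 signalling used here as a check of the labels, was higher by 2.71 in NT-3N (adjusted p = 0.0087, limma). Control replicate 1 stood apart in single spots: 66 features lay at least 4 log2 units below each of the other 4 arrays, which were well above background, against 0 or 1 on every other array. None of the 10 members was among these 66. The methods give 3 injected mice for the 3 NT-3N arrays, and p-values measure only the spread between these arrays. With 5 arrays an exact two-sided permutation test of 1 gene cannot go below p = 0.1, and a gene whose groups do not overlap need not reach that value. In whole colon, fewer cells of a type and less RNA per cell cannot be told apart.

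**Figure D1:**
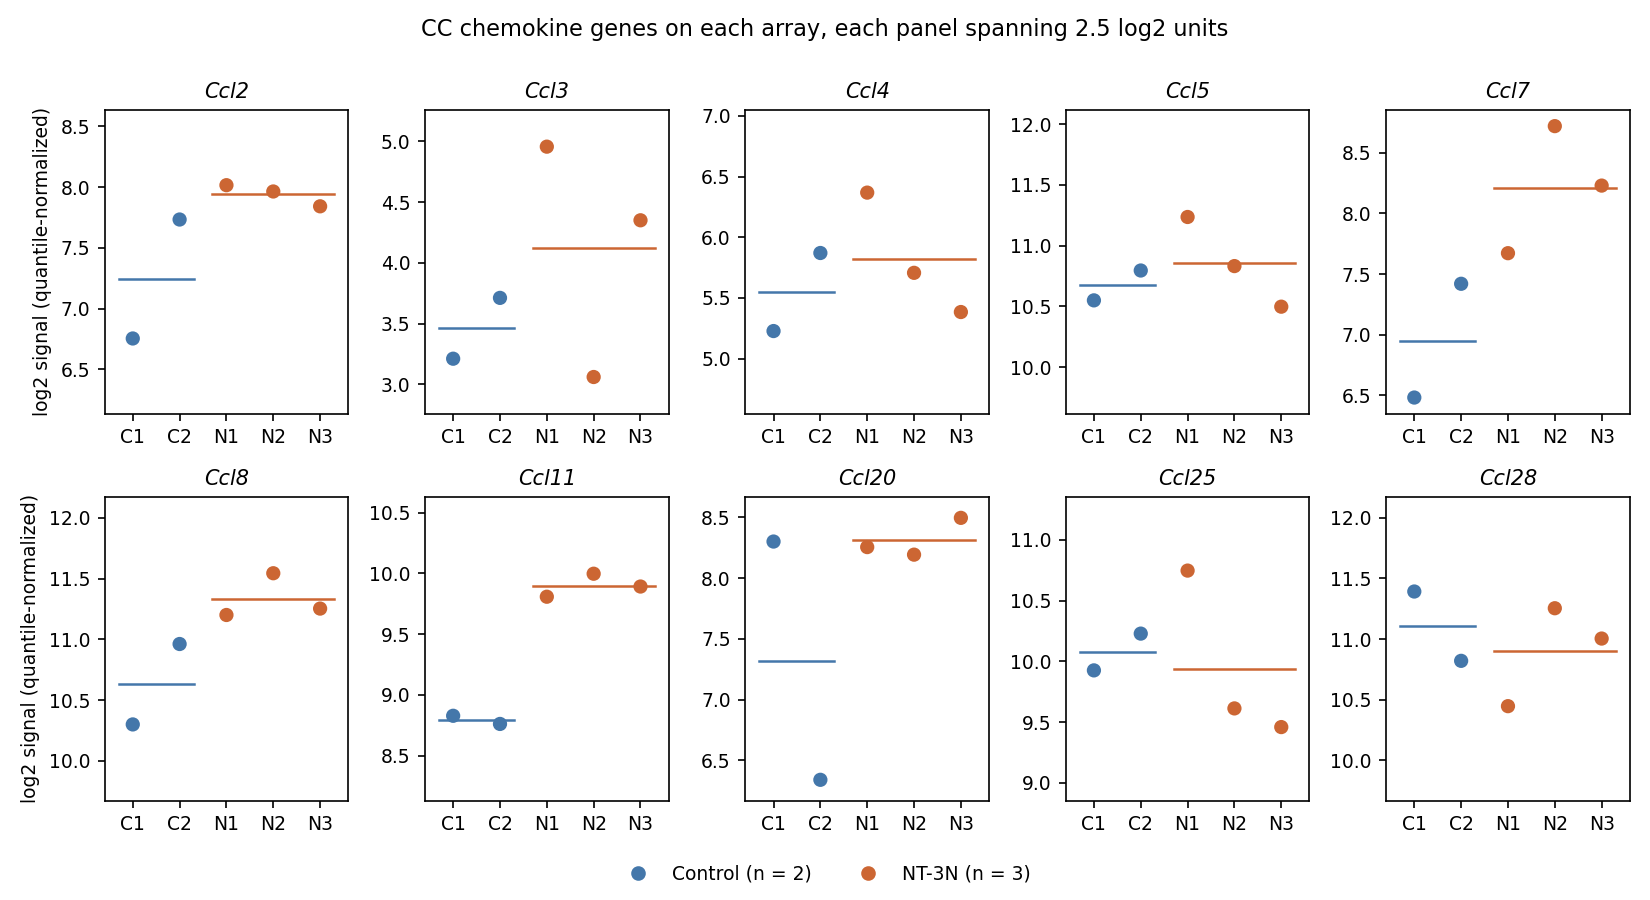
Log2 signal of the brightest probe of each member (vertical axis, each panel spanning 2.5 log2 units around its own values) on Control arrays C1 and C2 and NT-3N arrays N1 to N3 (horizontal axis), with lines at the group means. Ccl11 has 2 tight, separate groups, Ccl2, Ccl7 and Ccl8 have separate groups with C1 lowest, and Ccl20 has 1 low array, C2.

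Ccl11, the eotaxin gene, gave the clearest separation of the members. Its log2 signal was 8.83 and 8.76 on the Control arrays and 9.81, 10.00 and 9.89 on the NT-3N arrays. The groups did not overlap, and the distance between them was larger than the spread within either. The Control mean was 8.79 ± 0.047 (SD, n = 2) and the NT-3N mean 9.90 ± 0.095 (SD, n = 3). Ccl11 thus differed by 1.10 (standard error 0.11), with a 95% interval from 0.84 to 1.36 (adjusted p = 0.0345, limma). Across 18 alternative analyses the difference stayed between 1.01 and 1.15, with an unadjusted p under 0.05 in 18 of 18, but the adjusted p passed the threshold in 9 of 18 and ranged from 0.0098 to 0.49. Without Control replicate 1, Control replicate 2, NT-3N replicate 2 or NT-3N replicate 3 the adjusted p was 0.13, 0.11, 0.15 and 0.23, and without NT-3N replicate 1 it was 0.032.

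Levels of other cell types were read beside this difference. Eosinophils, which respond to eotaxin, are marked by 5 listed genes, of which 3 were tested and 0 passed an unadjusted p under 0.05 in either direction. Their summed signal was 352 to 395 in Control and 359 to 491 in NT-3N, with a median difference of 0.12, and the defining granule gene Epx was not well above background on any array. Ccr3, the eotaxin receptor, was not well above background on any array. Fibroblast markers had a median difference of 0.09 over 7 genes, with a summed signal of 62987 to 69335 in Control and 57940 to 87312 in NT-3N. Of these 7 genes, 2 (Dcn and Pdpn) were higher at an unadjusted p under 0.05 and 4 had their lowest value on NT-3N replicate 1. Pdpn, named after its values were seen, gave 10.33 and 10.66 in Control and 11.67, 12.13 and 12.16 in NT-3N. Its difference was 1.49 (adjusted p = 0.067, limma), and that of Dcn was 0.32 (adjusted p = 0.50, limma). The part of cell numbers in the Ccl11 difference was not tested.

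In 3 other lists some or all genes differed in signal or detection between the groups, though the summed signals of the neutrophil and interferon lists overlapped. Of 7 neutrophil markers 4 were tested. S100a8 and S100a9 were not well above background on either Control array and were so on all 3 NT-3N arrays. They passed the filter only through the NT-3N arrays, so no fold or p-value is given for them. The summed signal of the neutrophil markers was 77062 to 78083 in Control and 64123 to 77513 in NT-3N, most of it from Csf3r, and Cxcr2 was not well above background on any array. Smooth muscle markers were lower in 6 of 6, with NT-3N below both Control arrays in 5, a median difference of −0.28 and a summed signal of 445674 to 460166 in Control and 326964 to 416455 in NT-3N. Interferon response genes were lower in 9 of 10, with 5 at an unadjusted p under 0.05, a median difference of −1.58 and a summed signal of 153004 to 207823 in Control and 54304 to 164848 in NT-3N, and 9 of the 10 were lowest on NT-3N replicate 2. None of these 3 lists had a gene with an adjusted p under 0.05. Their part in the values of Ccl11, Ccl7, Ccl8 and Ccl2 was not tested.

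Ccl7, a monocyte chemoattractant, showed the largest difference among the members but a wide spread. Its log2 signal was 6.48 and 7.42 in Control and 7.67, 8.72 and 8.23 in NT-3N. Both Control arrays lay below all NT-3N arrays, but Control replicate 2 was close to NT-3N replicate 1. Ccl7 differed by 1.25 (standard error 0.38), with a 95% interval from 0.34 to 2.17, a 2.39-fold change (unadjusted p = 0.0147, adjusted p = 0.39, limma). Leaving out Control replicate 1 gave 0.79, and leaving out Control replicate 2 gave 1.72.

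Ccl8, a second monocyte chemoattractant, was bright on every array. Its log2 signal was 10.30 and 10.96 in Control and 11.20, 11.54 and 11.25 in NT-3N. The 3 NT-3N arrays lay above both Control arrays, which were further apart than the NT-3N arrays were. Ccl8 differed by 0.70 (standard error 0.21), with a 95% interval from 0.19 to 1.21 (adjusted p = 0.39, limma). With Control replicate 1 left out it was 0.37, and with Control replicate 2 left out 1.03.

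Ccl2, the best-known monocyte chemoattractant, gave 6.75 and 7.73 in Control and 8.02, 7.96 and 7.84 in NT-3N. The NT-3N arrays were close together, and Control replicate 2 lay just below them. The difference was 0.70, with a 95% interval from 0.021 to 1.37 (unadjusted p = 0.045, adjusted p = 0.51, limma). Without Control replicate 1 it was 0.21, and without Control replicate 2 it was 1.19. The size of the Ccl2 difference thus rested on Control replicate 1.

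Ccl2, Ccl7 and Ccl8 shared their order over the Control arrays: replicate 1 was lower than replicate 2 by 0.98, 0.94 and 0.66, while the median absolute distance between the Control arrays over all features was 0.163. Ccl11 had a distance of 0.067. Control replicate 1 gave the lowest value of the 5 arrays in 4 of 10 members, against 16.4% of all features. All 5 markers of monocytes passed the filter and had a median difference of 0.06 and 0 genes at an unadjusted p under 0.05 in either direction. Their summed signal was 152144 to 176689 in Control and 155089 to 167721 in NT-3N. Most of this sum came from Plac8, so it mainly reads 1 gene. Markers of resident macrophages had a median difference of −0.0038 over 9 genes, with 14337 to 14802 in Control and 12766 to 16498 in NT-3N. At an unadjusted p under 0.05, 1 of them was higher and 0 lower. This was Mrc1, named after its values were seen, with 9.10 and 8.84 in Control and 9.41, 9.67 and 9.43 in NT-3N. Its difference was 0.53 (adjusted p = 0.32, limma).

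Ccl2, Ccl7, Ccl11, Ccl12 and Ccl8 lie in that order next to each other on chromosome 11 in the RefSeq annotation, among the CC chemokine genes listed here. Ccl12, the neighbour that is not a member, was read for comparison after its values were seen. It gave 7.00 and 7.98 in Control and 7.91, 7.47 and 7.74 in NT-3N, so that Control replicate 2 was the highest array. Its difference was 0.22, with a 95% interval from −0.51 to 0.94 (adjusted p = 0.85, limma). Ccl12 shared the low Control replicate 1 with Ccl2, Ccl7 and Ccl8, by 0.98 against Control replicate 2. The difference between Ccl12 and its neighbours in response was not tested.

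The 150 bases upstream of Ccl8 and of Ccl12 are shown because the transcripts of these neighbouring genes gave unlike values, and those of Ccl20 because it is the epithelial member with the largest difference. They are RefSeq sequences of GRCm38.p6, written 5′ to 3′ on the gene's strand and ending at the base before the annotated start, and 5 of the 10 members had an entry. Capitals mark a match to TATAAA in Ccl8 and Ccl12 and a match to the kappaB pattern, GGG and TCC with any 4 bases between them, here on the opposite strand, in Ccl20.
Ccl8, chr11:82115035-82115184, plus strand: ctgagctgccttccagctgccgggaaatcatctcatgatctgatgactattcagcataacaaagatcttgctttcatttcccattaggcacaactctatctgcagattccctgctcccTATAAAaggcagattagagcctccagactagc
Ccl12, chr11:82101695-82101844, plus strand: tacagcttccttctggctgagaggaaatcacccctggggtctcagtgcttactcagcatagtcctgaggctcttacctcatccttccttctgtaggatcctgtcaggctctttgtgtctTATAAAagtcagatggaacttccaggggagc
Ccl20, chr1:83116616-83116765, plus strand: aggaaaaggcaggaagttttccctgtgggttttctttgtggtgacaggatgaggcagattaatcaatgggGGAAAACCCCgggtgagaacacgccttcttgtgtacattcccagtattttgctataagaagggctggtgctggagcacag

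The TATAAA match lay 32 to 27 bases before the start in Ccl8 and 31 to 26 bases before it in Ccl12, so both neighbours carried it at nearly the same place. It occurred on the gene's strand or the other in 7.57% of 32851 windows of 150 bases upstream of annotated starts. The kappaB match of Ccl20 lay 80 to 71 bases before its start, and the pattern occurred in 11.0% of windows. Searches on both strands for TTCNNNGAA, a STAT pattern found in 4.09% of windows, and TTGCNNAA, a C/EBP pattern found in 5.46%, gave no match in the 3 sequences shown. These matches describe letters and say nothing about binding.

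Ccl20, the ligand of Ccr6, was decided by 1 Control array. Its log2 signal was 8.30 and 6.34 in Control and 8.25, 8.19 and 8.50 in NT-3N. Control replicate 1 lay among the NT-3N arrays and Control replicate 2 far below them. The difference was 0.99 with a 95% interval from −0.26 to 2.25 (adjusted p = 0.61, limma), which became 0.014 when Control replicate 2 was left out and 1.98 when Control replicate 1 was. The distance between the Control arrays was 1.96, and 0.924% of all features had a larger one.

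Most listed genes of B cells and follicles were low on the same array. Of 9 listed markers, 7 had their lowest value on Control replicate 2, with a median deviation of −2.35 from each gene's median over the arrays, against 0.23 on Control replicate 1 and −0.02 to 0.25 on the NT-3N arrays. Their summed signal was 1247 to 5277 in Control and 4829 to 5813 in NT-3N. The exceptions were Ms4a1 and Pax5, named after their values were seen. Ms4a1 was lowest on Control replicate 1 and higher on all NT-3N arrays than on both Control arrays. It gave 4.95 and 6.53 in Control and 9.54, 9.13 and 9.51 in NT-3N (adjusted p = 0.059, limma). Pax5 was lowest on NT-3N replicate 3. Of 5 markers of follicle-associated epithelium and M cells, the epithelial cells over follicles, 3 were lowest on Control replicate 2, but 2 of these did not follow Ccl20 over the arrays. Tnfaip2 was low on both Control arrays (8.13 and 7.90, against 9.27, 9.53 and 9.38 in NT-3N) and rose by 1.38 (adjusted p = 0.0345, limma), and Gp2 was low on Control replicate 2 (4.51) and also on NT-3N replicate 2 (4.85). Both were chosen after their values were seen. Ccr6, the Ccl20 receptor, was chosen after its values were seen. It gave 9.32 and 7.11 in Control and 9.11, 9.09 and 9.32 in NT-3N, with Control replicate 2 lowest as for Ccl20. The part of follicle content in the Ccl20 values was not tested.

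**Figure D2:**
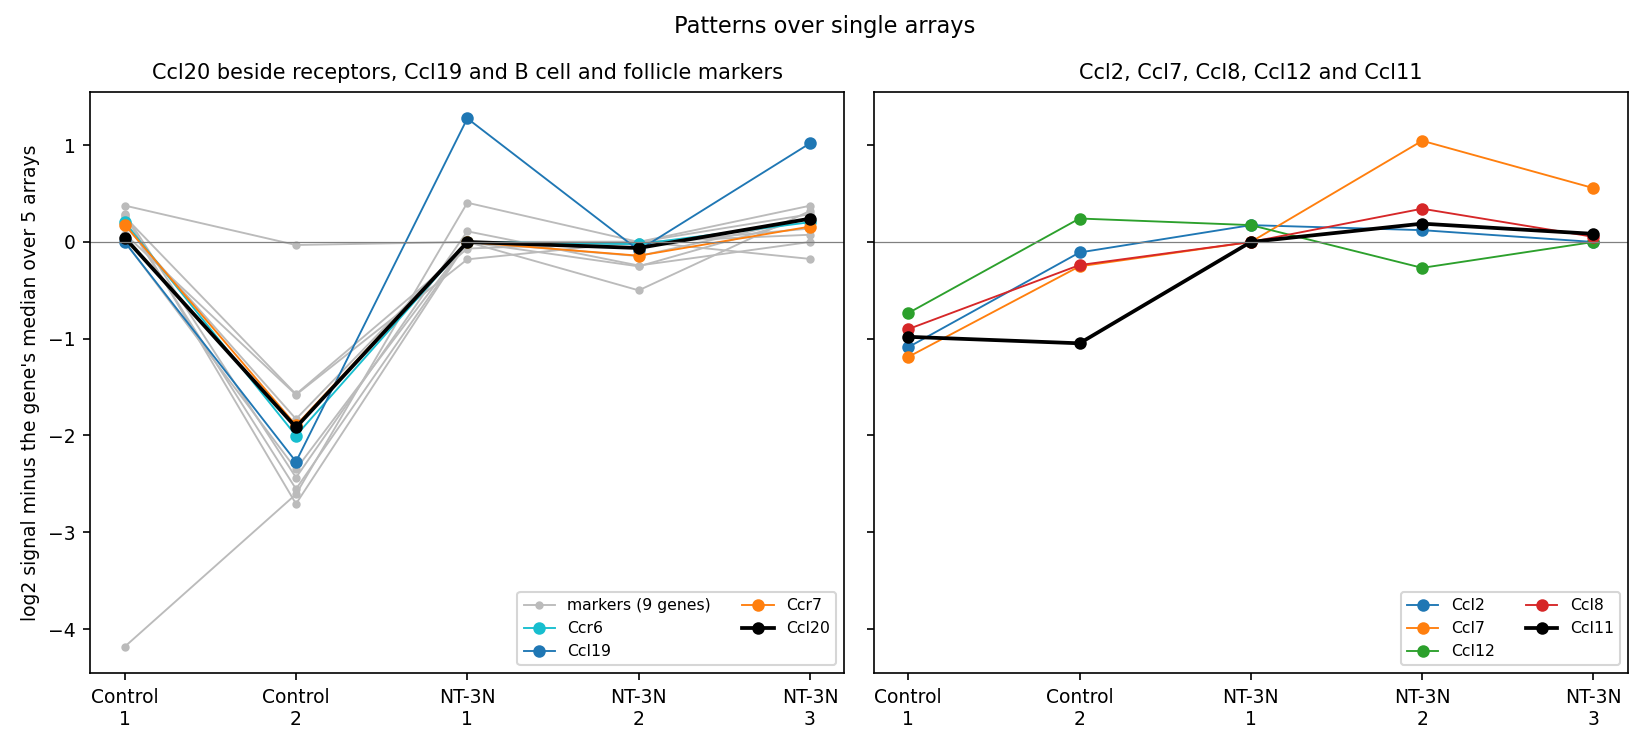
Log2 signal minus each gene's median over the 5 arrays (vertical axis) on each array (horizontal axis), with Ccl20, Ccr6, Ccl19, Ccr7 and 9 B cell and follicle markers (grey) on the left and the chromosome 11 neighbours on the right. Ccl20 drops on Control replicate 2 together with 7 of the 9 markers, and Ccl2, Ccl7, Ccl8 and Ccl12, but not Ccl11, are lower on Control replicate 1 than on Control replicate 2.

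Ccl3, Ccl4 and Ccl5, which draw monocytes and T cells, did not separate the groups. Ccl5, a product of T cells and natural killer cells, gave 10.55 and 10.80 in Control and 11.24, 10.83 and 10.50 in NT-3N. The NT-3N arrays spanned the Control values on both sides. The Ccl5 difference was 0.18, with a 95% interval from −0.34 to 0.71. Markers of T cells had a median difference of 0.10 over 9 genes, 0 of which had an unadjusted p under 0.05 in either direction.

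Ccl4 gave 5.23 and 5.87 in Control and 6.37, 5.71 and 5.38 in NT-3N on its brighter probe, a difference of 0.27 with a 95% interval from −0.57 to 1.11. The dimmer Ccl4 probe differed by 0.33 and had its highest value on the same array, NT-3N replicate 1. Ccl3 was near background: 1 of 2 Control arrays and 2 of 3 NT-3N arrays had it well above background. The Ccl3 values were 3.21 and 3.71 in Control and 4.96, 3.06 and 4.35 in NT-3N, with a difference of 0.66 and an interval from −0.76 to 2.08. For all 3 ligands the interval leaves room for a change in either direction, and Ccl3, Ccl4 and Ccl5 were each highest on NT-3N replicate 1.

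Ccl25 and Ccl28 were the members with lower means in NT-3N. Ccl25, which draws Ccr9-bearing lymphocytes mainly to the small intestine, gave 9.93 and 10.23 in Control and 10.75, 9.61 and 9.46 in NT-3N on its brightest probe. NT-3N replicate 1 was the highest array and NT-3N replicates 2 and 3 the lowest. The Ccl25 difference was −0.14, with a 95% interval from −1.05 to 0.78, and the other 2 probes gave 0.07 and −0.09. Without NT-3N replicate 1 the difference was −0.54 (unadjusted p = 0.0086, adjusted p = 0.19, limma). Of 9 markers of small intestinal epithelium, 7 were highest on NT-3N replicate 1 and 2 (Lct and Sis) on Control replicate 2, with a median deviation of 0.98 against −0.23 to 0.17 on the other arrays. Their summed signal was 4500 to 11725 in Control and 7417 to 22502 in NT-3N, and its lowest value includes Slc10a2, which gave 3.90 on Control replicate 1 and 11.58 to 13.15 on the other arrays, 1 of the 66 features far below. The part of this in the Ccl25 values was not tested.

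Ccl28, which attracts Ccr10-bearing plasma cells to mucosal surfaces, gave 11.39 and 10.82 in Control and 10.45, 11.25 and 11.00 in NT-3N. The arrays of the groups were interleaved, with NT-3N replicate 1 the lowest. The Ccl28 difference was −0.20, with a 95% interval from −0.86 to 0.45, and the second probe gave −0.16. Markers of colonic epithelium had a median difference of −0.03 over 6 genes, with a summed signal of 670430 to 707509 in Control and 635120 to 695827 in NT-3N, so the labelled tissue had its own epithelial markers on every array.

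**Figure D3:**
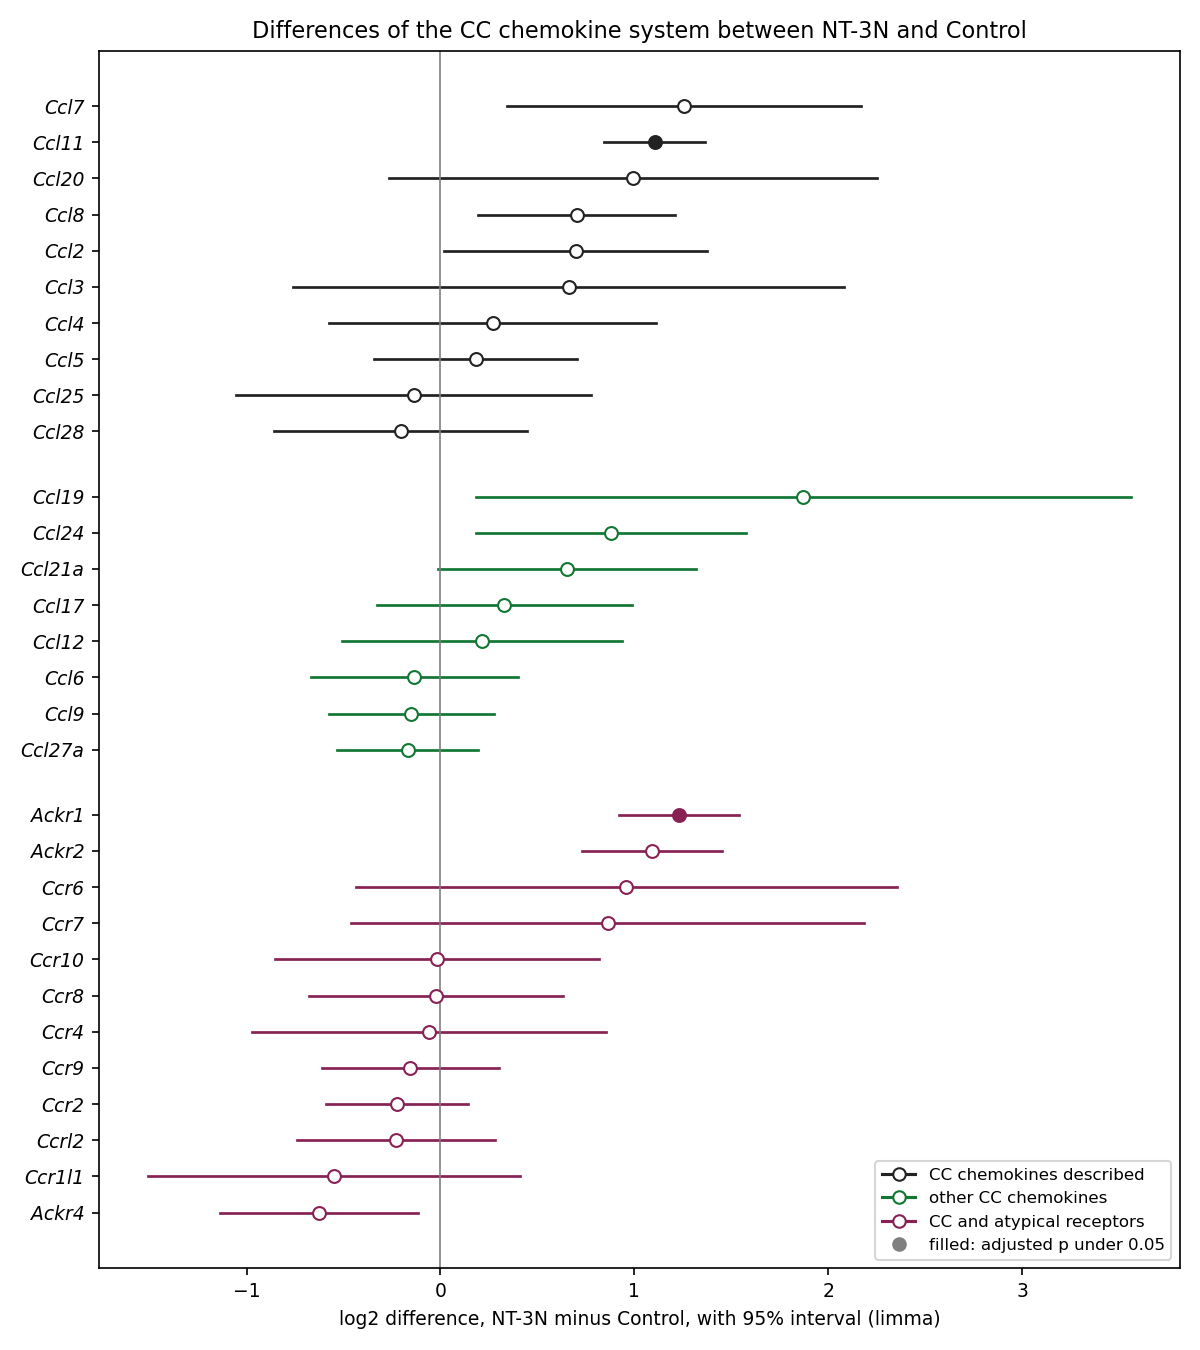
Log2 difference NT-3N minus Control (horizontal axis) with its 95% limma interval for each tested gene (vertical axis) of the 10 members, 8 other CC chemokines and 12 receptors; filled points have an adjusted p under 0.05. Ccl11 and Ackr1 are the filled points, and the intervals of Ccl20, Ccl3, Ccl4, Ccl5, Ccl25 and Ccl28 cross 0.

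Of 14 other CC chemokine genes, 11 had a probe under their name and 8 passed the filter on dim signal, with 5 higher and 3 lower and a median difference of 0.27. Ccl1, Ccl22 and Ccl26 were not well above background on any array. At an unadjusted p under 0.05, 2 were higher and 0 lower, and 0 passed an adjusted p under 0.05. Ccl24, a second eotaxin that also binds Ccr3, gave 4.70 and 5.49 in Control and 5.87, 5.85 and 6.22 in NT-3N. These groups did not overlap, and the difference was 0.88 (adjusted p = 0.43, limma), or 0.48 without Control replicate 1. Ccl19, a ligand of Ccr7 made by stromal cells of lymphoid tissue, gave 7.96 and 5.69 in Control and 9.24, 7.88 and 8.98 in NT-3N, so that Control replicate 1 lay above NT-3N replicate 2. Its difference of 1.87 (adjusted p = 0.48, limma) fell to 0.74 without Control replicate 2, the array on which Ccl20 and most follicle markers were low. Ccr7, named after its values were seen, gave 8.82 and 6.74 in Control and 8.64, 8.50 and 8.80 in NT-3N. Ccl21a and Ccl27a have near-identical copies in the mouse genome, so their probes may read more than 1 gene.

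Receptors were read to see which partners of these ligands were present. Of 14 genes for CC receptors and atypical receptors, 12 passed the filter, and Ccr1 and Ccr3 were not well above background on any array. The median difference was −0.04, with 4 higher and 8 lower. At an unadjusted p under 0.05, 2 were higher and 1 lower, and all 3 were atypical receptors, which bind chemokines and do not couple to the usual migration signal. None of the signalling receptors tested passed this threshold. Ccr2, the receptor of Ccl2 and Ccl7, gave 6.59 and 6.46 in Control and 6.35, 6.25 and 6.31 in NT-3N, a difference of −0.22 (adjusted p = 0.68, limma), with all NT-3N arrays slightly below both Control arrays; it was named after its values were seen.

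Ackr1, which binds many inflammatory chemokines on venular endothelium and erythrocytes, rose. It gave 8.14 and 8.30 in Control and 9.59, 9.32 and 9.44 in NT-3N, with no overlap. The difference was 1.23, with a 95% interval from 0.92 to 1.54, a 2.35-fold change (adjusted p = 0.043, limma). Its adjusted p passed the threshold in 9 of 18 alternatives and was 0.18, 0.083, 0.12 and 0.24 without Control replicate 1, Control replicate 2, NT-3N replicate 2 and NT-3N replicate 3. Endothelial markers had a median difference of 0.15 over 6 genes, with a summed signal of 2877 to 3176 in Control and 3016 to 3593 in NT-3N, and erythroid markers one of 0.36 over 4 genes, with 5558 to 5970 in Control and 6798 to 8485 in NT-3N and 2 genes higher at an unadjusted p under 0.05. The part of these cells in the Ackr1 difference was not tested.

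Ackr2, a scavenger of inflammatory CC chemokines including Ccl2 and Ccl11 that is known from lymphatic endothelium, gave 7.08 and 7.20 in Control and 8.09, 8.18 and 8.44 in NT-3N. Its groups were well apart, with a difference of 1.09 and a 95% interval from 0.73 to 1.45 (adjusted p = 0.083, limma). Ackr4, a scavenger of Ccl19, Ccl21 and Ccl25, gave 8.12 and 8.36 in Control and 7.24, 7.80 and 7.81 in NT-3N. All NT-3N arrays lay below both Control arrays, with a difference of −0.63 (adjusted p = 0.44, limma).

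Of 12 cytokine genes known to induce CC chemokines in stromal or epithelial cells, 8 passed the filter, 6 higher and 2 lower. At an unadjusted p under 0.05, 3 were higher and 0 lower. These 3 include Il6, which passed the filter only through the NT-3N arrays, so its place in the count is not a valid test result. Il33, an alarmin of stromal and epithelial cells, rose: it gave 7.30 and 7.25 in Control and 9.65, 9.97 and 10.05 in NT-3N, a difference of 2.61 (adjusted p = 0.0057, limma). The adjusted p of Il33 missed the threshold in 4 of 18 alternatives. It was 0.072 with no filter on dim probes, 0.057 with no intensity trend, 0.35 with the replicate block and 0.078 without NT-3N replicate 3. Il6 was not well above background on either Control array and was so on 2 of 3 NT-3N arrays, and no fold or p-value is given for it. Il1b gave 7.30 and 7.65 in Control and 7.94, 8.20 and 7.76 in NT-3N, a difference of 0.49 (adjusted p = 0.48, limma). A role of these cytokines in the chemokine values was not tested.

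**Figure D4:**
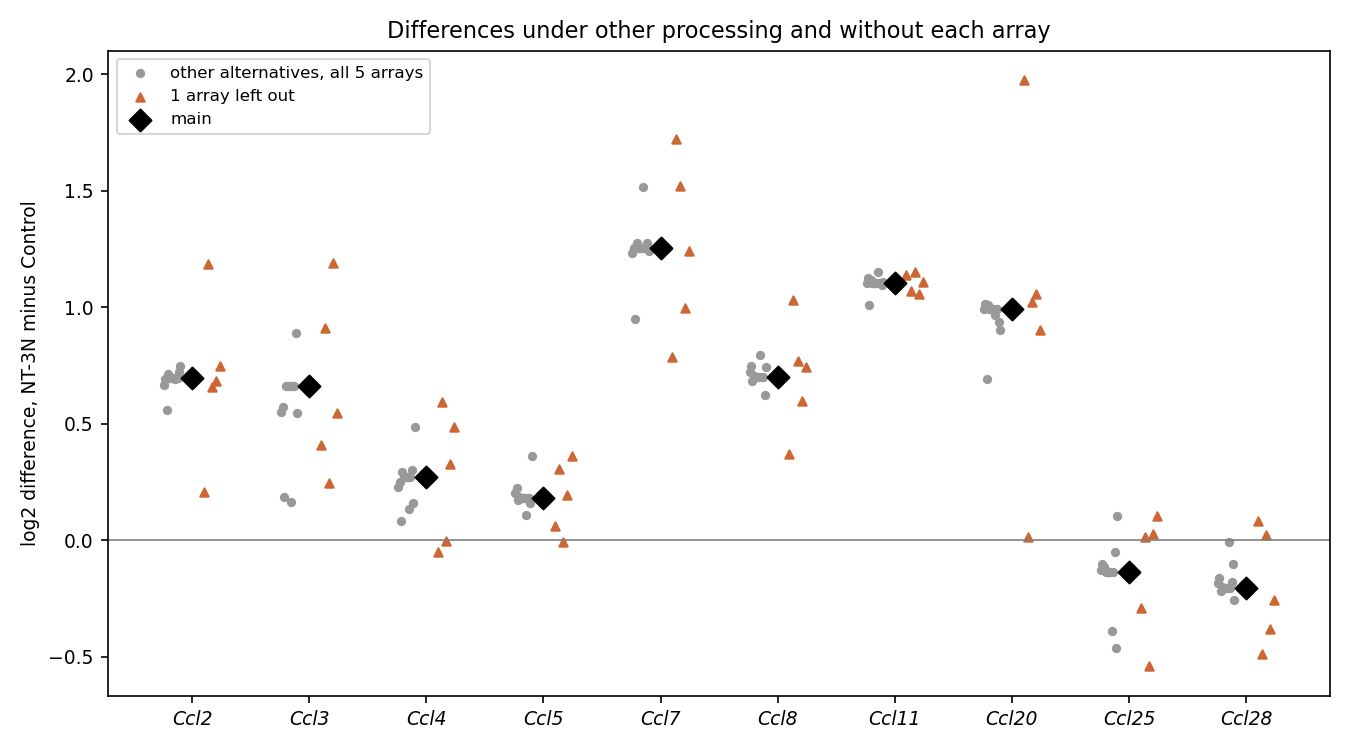
Log2 difference NT-3N minus Control (vertical axis) of each member (horizontal axis) in the main analysis (diamonds), under other processing of all 5 arrays (grey circles) and with each array left out in turn (triangles). Ccl11 stays between 1.01 and 1.15, Ccl20 ranges from 0.014 to 1.98 with 1 Control array left out, and Ccl4, Ccl5, Ccl25 and Ccl28 fall on both sides of 0.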

How the data were processed

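Whole-colon RNA of 2 Control and 3 NT-3N mice was hybridised to Agilent arrays. Per the file headers, the authors read the scans in Feature Extraction 11.0.1.1. The deposited files hold for each spot a background-subtracted, detrended intensity that is not scaled between arrays. The deposited log2 table of 37380 probes correlated at 0.99998 or more per array with the values computed here and served as an alternative. Control and outlier spots were left out (69 to 184 of 59305 per array), intensities were log2-transformed, spots averaged per probe and arrays quantile-normalized. Probes were kept if well above background on at least 2 of 5 arrays, with values on both Control and at least 2 NT-3N arrays. RefSeq accessions named 32989 of 56605 probes, and the brightest probe stood for a gene. The other probes of a gene were fitted in a separate run of every probe.

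NT-3N was tested against Control in R 4.3.3 by limma 3.58.1 (lmFit, eBayes with intensity trend, two-sided, Benjamini-Hochberg over 32917 features), tested on simulated data. A local-pooled-error test, named in the study's methods, was 1 alternative. Others covered scaling, background, filters, variance models, several probes, the replicate number as a block and each array left out. The number of arrays limits the precision. Every member is named, and of the other CC chemokines, receptors and cytokines those with an unadjusted p under 0.05; genes named outside this rule are marked in the text, and 1 receptor is not reported here. The members and gene lists were chosen with earlier results of these data known. The array design refers to another build than the RefSeq table, so no probe coordinates are given.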

Additional observations from a re-analysis of the deposited data

How the results depend on the processing

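Under the 18 alternatives, Ccl2, Ccl3, Ccl7, Ccl8, Ccl11 and Ccl20 kept the direction of their difference wherever they had a value (Ccl3 had none in 2 of them), and 0 members were called lower. The count of members called higher was 0 with normexp, with no filter on dim probes, with no intensity trend, with the local-pooled-error test and with the replicate block, and 0 to 1 when arrays were left out. The count of members at least 2-fold higher was 1 with normexp and 2 to 4 when arrays were left out. It was 4 without Control replicate 2 (Ccl2, Ccl7, Ccl8 and Ccl11) and 2 without Control replicate 1 (Ccl11 and Ccl20). Other CC chemokines at an unadjusted p under 0.05 numbered 1 with no filter on dim probes, with no intensity trend, with robust variance and with the replicate block, and 0 to 4 when arrays were left out (0 without NT-3N replicate 3, 4 without Control replicate 1). Receptors numbered 2 to 6 when arrays were left out, the 6 without Control replicate 1. The difference of Ccl25 turned to 0.10 with the replicate block. Leaving out arrays gave −0.54 to 0.10 for Ccl25, −0.051 to 0.59 for Ccl4, −0.0078 to 0.36 for Ccl5 and −0.49 to 0.081 for Ccl28. What caused these changes was not tested.

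Deviations of same-numbered arrays from their group means correlated at 0.128 (replicate 1) and 0.0357 (replicate 2). With 2 Control arrays these 2 values are not independent, so they cannot show whether same-numbered arrays were paired. With the replicate block 0 features were called, 2488 had an unadjusted p under 0.05, and Ccl11 differed by 1.11 (adjusted p = 0.49, limma). The block keeps the 4 arrays with a partner number and has fewer residual degrees of freedom. Over all features the main analysis called 41 higher and 6 lower, the local-pooled-error test 192 and 156, no filter 2 and 0, no trend 2 and 0, array weights 140 and 60, robust variance 54 and 15, the deposited values 50 and 11, the filter on all 5 arrays 50 and 13, and every probe 46 and 10. Leaving out arrays gave 0 to 114 higher and 0 to 16 lower; without NT-3N replicate 3 it was 0 and 0, with 2384 at an unadjusted p under 0.05. No slide or scan block could be fitted: 1 slide was scanned at 1 time. Normexp used median spot signals, not the planned means, a choice made after the files had been seen.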
